A study of Mus musculus with 6 samples.

Results

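The genes described here are 10 genes of calcium entry and exit at the sarcolemma, the surface membrane of the cardiomyocyte, read in ventricles of adult mice in which COUP-TFII had been switched on. They are the pore subunits Cacna1c, Cacna1d, Cacna1g, Cacna1h and Cacna1s, the auxiliary subunits Cacna2d1, Cacnb2, Cacnb3 and Cacng6, and the sodium-calcium exchanger Slc8a1. A probe set, the group of short probes that reads a transcript on the array, was taken for a gene when the array annotation gave it that 1 symbol. By this rule 9 of the 10 genes had 21 probe sets between them, of 18193 genes read by 34945 probe sets in all. Cacnb3 had no probe set under the rule and was not analysed here.

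OE ventricles came from 3 mice of genotype Myh6-MerCreMer; CAG-S-COUP-TFII, and CTRL ventricles from 3 mice that carried Myh6-MerCreMer only, all on a mixed 129SvEv/C57Bl6/J background. From 2 months of age every mouse was dosed with tamoxifen (40 mg per kg daily, 3 days), and the tissue was taken 16 days after the first dose, at a labelled age of 2.5 months. The comparison addresses how transcripts of the adult heart differ once COUP-TFII, the nuclear receptor encoded by Nr2f2, is raised in cardiomyocytes. The paper reports that OE hearts were by this stage severely dilated and contracted poorly, and likens them to end-stage dilated cardiomyopathy of patients. Raised COUP-TFII and heart failure therefore came together in the OE mice, and their separate parts in the differences were not tested. Myh6 drives the Cre only in cardiomyocytes, whereas the RNA came from whole ventricles with all their cell types. Cre and tamoxifen were common to both groups, so neither was itself compared. The methods describe separate animals, and describe the animals of the study as male unless stated otherwise.

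At each beat, depolarization opens L-type calcium channels, and the calcium that enters triggers a far larger release from the sarcoplasmic reticulum. An L-type channel is built on a pore-forming α1 subunit, with a β subunit inside the cell and an α2δ subunit outside it that control how many channels reach the membrane and how they gate. T-type channels open at more negative voltages and are known for pacemaker and conduction tissue and for the fetal ventricle. During relaxation the sodium-calcium exchanger carries calcium back out in exchange for sodium, so that exit balances entry over the beat.

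The deposited values were log2 values from which each probe set's own median across the 6 arrays had been taken off. A value of 0 is therefore the middle of the 6 arrays and not an absence of transcript, and the levels of 2 genes cannot be compared. Because of the centring, the middle pair of arrays of a probe set lie at equal distances from 0. The values cannot show whether a probe set was above background, nor whether the defining markers of ventricle were present in absolute terms. Any OE array lay 0.194 to 0.215 from another OE array and any CTRL array 0.208 to 0.233 from another CTRL array, whereas OE and CTRL arrays were 0.375 to 0.427 apart (root mean square over genes, log2). Of the 6 probe sets of Nr2f2, 1416159_at was 11.2-fold higher in OE ventricles than in CTRL ventricles (adjusted p = 3.073e-05, limma with Benjamini-Hochberg adjustment). The other 5 were not called, and all of them pointed lower in OE ventricles, at log2 differences of −0.34 to −0.13. The mean of the 6 was 1.31-fold higher in OE ventricles (adjusted p = 0.0466, limma).

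Among the 9 genes read, 5 passed the test. The exchanger Slc8a1 was higher in OE ventricles, while the pores Cacna1c, Cacna1g, Cacna1h and Cacna1s were lower. Cacna1d and the auxiliary subunits Cacna2d1, Cacnb2 and Cacng6 did not pass. A gene was called when its adjusted p was under 0.05 in a limma fit over all 18193 genes, with Benjamini-Hochberg adjustment over those genes. Of all genes, 2709 were called higher (14.9%) and 2152 lower (11.8%), 26.7% in either direction, beside 1 and 4 of the 9 genes here. In 6 of the 9 the OE and CTRL arrays did not overlap, with Cacna1d and Slc8a1 above and the other 4 below, against 45.6% of all genes (22% above and 23.6% below). With each array centred on the 42 ribosomal protein genes, which moved the median of all genes by −0.20, the counts were 1377 higher and 8757 lower of all genes and 1 higher and 5 lower of the 9. The median log2 difference was −0.13 over the 9 genes and −0.03 over all genes. In ventricle RNA taken as a whole, fewer cells of a type and less RNA per cell cannot be told apart.

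**Figure D1:**
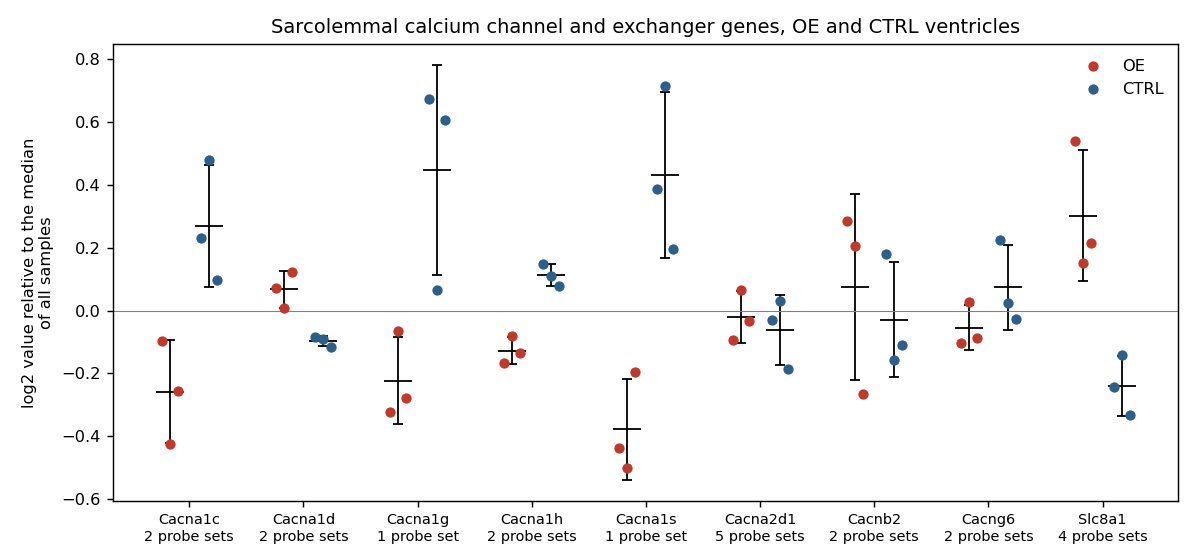
Log2 value relative to the median of 6 arrays (y axis) for the 9 genes read (x axis), with 1 point per array, OE left of CTRL, and lines at the group mean ± SD (n = 3). The OE points of Cacna1c, Cacna1g, Cacna1h and Cacna1s all lie below the CTRL points, those of Slc8a1 and Cacna1d all lie above them, and the groups overlap in Cacna2d1, Cacnb2 and Cacng6.

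Cacna1c encodes Cav1.2, the L-type pore that carries most of the calcium current of ventricular muscle. Its values were −0.10, −0.42 and −0.25 in OE 1, OE 2 and OE 3, against 0.23, 0.48 and 0.10 in CTRL 1, CTRL 2 and CTRL 3. All 3 OE arrays lay below the CTRL arrays, OE 2 the furthest below and CTRL 2 the furthest above. Cacna1c fell by 0.53 on the log2 scale (SE 0.12), 1.44-fold lower in OE ventricles (adjusted p = 0.0170, limma), with a 95% interval of −0.81 to −0.25. Both of its probe sets were called lower, 1421297_a_at at −0.63 (adjusted p = 0.0152 over probe sets, limma) and 1435730_at at −0.42 (adjusted p = 0.0443). The call was lost without OE 2 (log2 difference −0.44, adjusted p = 0.052, limma) and under a one-way analysis of variance (adjusted p = 0.0906).

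Cacna1s encodes Cav1.1, best known as the voltage sensor of skeletal muscle. Its 1 probe set read −0.44, −0.50 and −0.20 in OE 1, OE 2 and OE 3, against 0.39, 0.72 and 0.20 in CTRL 1, CTRL 2 and CTRL 3. No OE array reached a CTRL array, and the nearest pair were OE 3 and CTRL 3. Cacna1s fell by 0.81 on the log2 scale (SE 0.14), 1.75-fold lower in OE ventricles (adjusted p = 0.00590, limma), a change larger in size than that of 96.1% of all genes. It stayed called whichever array was left out, and missed the threshold under a one-way analysis of variance (adjusted p = 0.0599). Of 12 skeletal muscle markers, 2 were lower and 10 were not called, and the mean of the list was −0.17 to 0.10 in OE arrays and −0.08 to 0.12 in CTRL arrays. The 2 lower ones were Tnni2, a fast troponin I, at −0.59 (adjusted p = 0.00218, limma) and Mylpf, a fast myosin light chain, at −0.42 (adjusted p = 0.0495). Mylpf was not called without any one array (adjusted p between 0.0564 and 0.14, limma), with centring on the array median (adjusted p = 0.0528) or under a one-way analysis of variance (adjusted p = 0.16). Their part in the value of Cacna1s was not tested.

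Cacna1d encodes Cav1.3, the L-type pore of the sinoatrial node and atria. It read 0.07, 0.01 and 0.12 in OE 1, OE 2 and OE 3, against −0.08, −0.09 and −0.11 in CTRL 1, CTRL 2 and CTRL 3. The arrays did not overlap, but the gap was small. The log2 difference was 0.16 (SE 0.06, adjusted p = 0.0995, limma), with a 95% interval of 0.01 to 0.31. The probe set 1427974_s_at differed by 0.32 (adjusted p = 0.0703, limma) and 1428051_a_at by 0.00 (adjusted p = 0.975), so the arrays stood apart in one of them and overlapped in the other. With centring on the ribosomal protein genes the difference of Cacna1d was −0.04.

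The promoter windows of 3 called genes are shown because these genes moved in opposite directions. The windows run from 250 bases before to 50 bases after a RefSeq start on GRCm38.p6 and are printed 5′ to 3′ on the strand of the gene. Slc8a1 is at chr17:81738338-81738637 on the minus strand and Cacna1s at chr1:136052561-136052860 on the plus strand. The 3 starts of Cacna1c are at chr6:119196360-119196659, chr6:119108446-119108745 and chr6:118757925-118758224, all on the minus strand. Capitals mark matches on either strand to 4 motifs. The first motif is AGGTCA, the half-site bound by COUP-TFII and by other nuclear receptors. The second is AGATAA, which transcription factors of the GATA family recognise in heart muscle. The third is CATTCC, known as the MCAT motif of muscle genes and bound by TEAD factors. The last is GGGCGG, the GC box of Sp factors.
Slc8a1: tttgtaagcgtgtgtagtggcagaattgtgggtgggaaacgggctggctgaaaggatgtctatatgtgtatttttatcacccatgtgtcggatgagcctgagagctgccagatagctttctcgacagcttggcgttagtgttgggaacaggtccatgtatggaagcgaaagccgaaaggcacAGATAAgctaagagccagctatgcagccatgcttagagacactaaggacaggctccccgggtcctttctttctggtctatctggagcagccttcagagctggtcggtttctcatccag
Cacna1s: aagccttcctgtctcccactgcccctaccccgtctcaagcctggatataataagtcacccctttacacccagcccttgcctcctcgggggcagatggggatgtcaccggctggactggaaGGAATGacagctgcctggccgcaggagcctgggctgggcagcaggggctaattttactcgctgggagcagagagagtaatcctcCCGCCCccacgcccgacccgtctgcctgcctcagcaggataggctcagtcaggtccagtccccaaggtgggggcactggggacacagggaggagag
Cacna1c start 1: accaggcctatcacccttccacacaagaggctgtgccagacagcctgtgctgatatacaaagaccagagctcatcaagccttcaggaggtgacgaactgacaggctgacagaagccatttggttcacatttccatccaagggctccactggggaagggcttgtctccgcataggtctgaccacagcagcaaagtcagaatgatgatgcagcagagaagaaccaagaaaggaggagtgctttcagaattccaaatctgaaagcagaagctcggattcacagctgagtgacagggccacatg
Cacna1c start 2: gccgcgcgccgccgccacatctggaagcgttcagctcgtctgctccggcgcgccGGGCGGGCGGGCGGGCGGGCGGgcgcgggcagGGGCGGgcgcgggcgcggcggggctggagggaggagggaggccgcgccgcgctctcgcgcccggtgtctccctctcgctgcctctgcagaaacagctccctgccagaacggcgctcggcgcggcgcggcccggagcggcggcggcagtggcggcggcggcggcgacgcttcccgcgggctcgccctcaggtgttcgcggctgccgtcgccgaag
Cacna1c start 3: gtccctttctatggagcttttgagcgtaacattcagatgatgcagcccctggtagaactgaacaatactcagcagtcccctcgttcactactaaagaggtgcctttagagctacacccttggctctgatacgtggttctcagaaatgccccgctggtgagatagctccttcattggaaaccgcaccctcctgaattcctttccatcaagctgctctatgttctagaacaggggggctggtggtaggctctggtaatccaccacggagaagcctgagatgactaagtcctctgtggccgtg

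The window of Slc8a1 held AGATAA, at position −68 counted from the start. It held none of the other 3 motifs. That of Cacna1s held CATTCC at −130 and GGGCGG at −46, both on the opposite strand. Start 2 of Cacna1c, with 81.3% G and C, held 6 matches to GGGCGG, most of them overlapping each other, whereas starts 1 and 3, with 51.3% each, held no match to any motif. Over the 13 windows found for 8 of the 10 genes, AGGTCA occurred in 0, AGATAA in 1, CATTCC in 2 and GGGCGG in 7. Over 32851 windows of the same length the shares were 16.3%, 11.2%, 14.7% and 35.7% in the same order. Cacna1g and Cacna1h were not matched in this table. The arrays do not tell which of the starts of Cacna1c was used.

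Cacna1g and Cacna1h encode the T-type pores Cav3.1 and Cav3.2. Both were lower in OE ventricles, but the spread between arrays differed between them. Cacna1g read −0.32, −0.06 and −0.28 in OE 1, OE 2 and OE 3, against 0.67, 0.06 and 0.61 in CTRL 1, CTRL 2 and CTRL 3. OE 2 and CTRL 2 lay close together, while the other arrays of the 2 groups were well apart. Cacna1g fell by 0.67 on the log2 scale (SE 0.16), 1.59-fold lower in OE ventricles (adjusted p = 0.0197, limma), from 1 probe set. Its pooled standard deviation within groups, 0.256, was larger than that of 94.1% of genes. The call was lost without OE 1 (adjusted p = 0.0688), OE 3 (adjusted p = 0.0606), CTRL 1 (adjusted p = 0.0620) or CTRL 3 (adjusted p = 0.0518, limma), and under a one-way analysis of variance (adjusted p = 0.110).

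Cacna1h read −0.17, −0.08 and −0.14 in OE 1, OE 2 and OE 3, against 0.15, 0.11 and 0.08 in CTRL 1, CTRL 2 and CTRL 3. The arrays of each group were close to one another, with a pooled standard deviation of 0.0394, larger than that of only 4.36% of genes. That value is for the mean of 2 probe sets, whose own pooled standard deviations were 0.0688 and 0.0888, whereas Cacna1g had 1 probe set. Cacna1h fell by 0.24 on the log2 scale (SE 0.06), 1.18-fold lower in OE ventricles (adjusted p = 0.0288, limma). The difference came mainly from 1422710_a_at at −0.39 (adjusted p = 0.0143), since 1427607_at differed by −0.09 and was not called (adjusted p = 0.523). The call was lost when any single array other than OE 2 was left out, at adjusted p between 0.0506 and 0.0933 (limma). Of the pacemaker and conduction markers, tissue in which T-type channels are known, 8 of 12 were measured, with 2 higher and 2 lower. The mean of that list was −0.08 to 0.06 in OE arrays and −0.08 to 0.09 in CTRL arrays. All 4 encode transcription regulators, Id2 at 1.16 and Tbx18 at 0.29 among the higher, Irx3 at −0.94 and Tbx3 at −0.49 among the lower. The call of Tbx18 was lost without OE 1, OE 2 or CTRL 2 (adjusted p between 0.058 and 0.0623, limma) and with centring on the ribosomal protein genes (0.09, adjusted p = 0.33), and one-way analysis of variance called neither Id2 nor Irx3. Their part in the values of the T-type pores was not tested.

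Cacna2d1 encodes α2δ-1, the extracellular auxiliary subunit that brings the channel to the membrane. Averaged over its 5 probe sets it was not called, at 0.04 (SE 0.08, adjusted p = 0.743, limma), with a 95% interval of −0.15 to 0.23, and the mean was −0.16 with centring on the ribosomal protein genes. That mean joined probe sets that went opposite ways. The probe set 1449999_a_at read −0.48, −0.15 and −0.33 in OE 1, OE 2 and OE 3, against 0.33, 0.71 and 0.15 in CTRL 1, CTRL 2 and CTRL 3, and was called lower at −0.72 (adjusted p = 0.0136). The probe set 1440397_at read 0.55, 0.31 and 0.15 in OE 1, OE 2 and OE 3, against −0.15, −1.04 and −0.62 in CTRL 1, CTRL 2 and CTRL 3, and was called higher at 0.94 (adjusted p = 0.0177). No OE array overlapped a CTRL array in either of them. One-way analysis of variance called 1 of the 21 probe sets higher and 1 lower, neither of them of Cacna2d1.

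The remaining 3 probe sets of Cacna2d1 were not called. They differed by −0.25 (1433643_at, adjusted p = 0.104), −0.08 (1425861_x_at, adjusted p = 0.652) and 0.32 (1441608_at, adjusted p = 0.237), all from limma over probe sets. Of genes with more than 1 probe set, 138 of 9010 (1.53%) had probe sets called in both directions, as had 43 of 856 (5.02%) with 5 or more. Which transcripts of Cacna2d1 the probe sets read was not tested. With the probe set of largest variance in place of the mean, Cacna2d1 was higher at 0.94 (adjusted p = 0.0143).

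**Figure D2:**
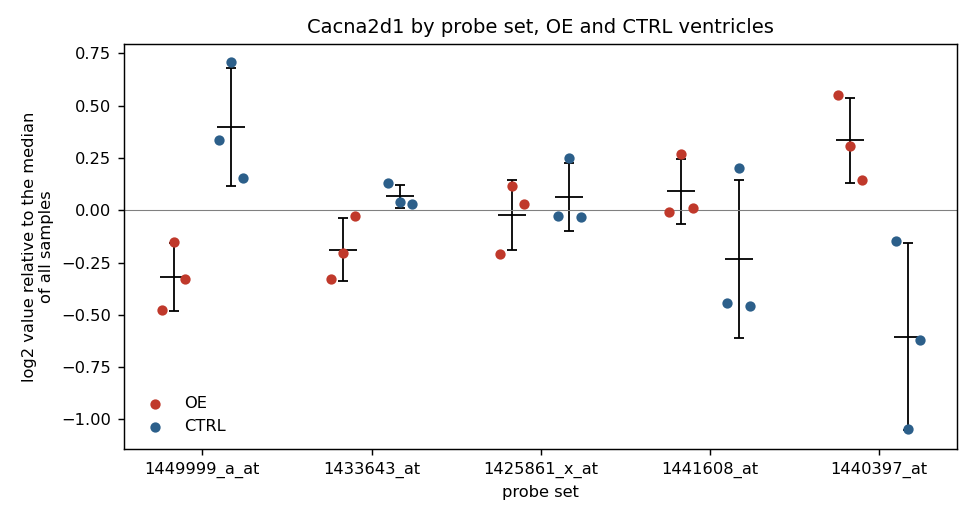
Log2 value relative to the median of 6 arrays (y axis) for the 5 probe sets of Cacna2d1 (x axis), 1 point per array with OE left of CTRL and lines at the group mean ± SD (n = 3). The OE points lie below the CTRL points in 1449999_a_at (difference −0.72) and above them in 1440397_at (difference 0.94).

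The other auxiliary subunits did not pass the test. Cacnb2, the main β subunit of heart muscle, read 0.28, 0.20 and −0.27 in OE 1, OE 2 and OE 3, against 0.18, −0.16 and −0.11 in CTRL 1, CTRL 2 and CTRL 3. OE 3 was the lowest of the 6 arrays and OE 1 the highest, so the groups overlapped. The log2 difference was 0.10 (SE 0.16, adjusted p = 0.653, limma), with a 95% interval of −0.26 to 0.47. Its spread within groups was larger than that of 93.4% of genes, and the direction was the opposite, at −0.10, with centring on the ribosomal protein genes.

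Cacng6, a γ subunit of striated muscle, read −0.10, 0.03 and −0.09 in OE 1, OE 2 and OE 3, against 0.23, 0.02 and −0.03 in CTRL 1, CTRL 2 and CTRL 3. The groups overlapped, and only CTRL 1 stood apart. The log2 difference was −0.13 (SE 0.09, adjusted p = 0.303, limma), with a 95% interval of −0.33 to 0.07. It was called lower only with centring on the ribosomal protein genes, at −0.33 (adjusted p = 0.0192). Intervals of this width do not show that either subunit was equal in the 2 groups.

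Slc8a1 encodes NCX1, the exchanger that removes most of the calcium leaving a cardiomyocyte across its surface. It read 0.54, 0.15 and 0.21 in OE 1, OE 2 and OE 3, against −0.24, −0.14 and −0.33 in CTRL 1, CTRL 2 and CTRL 3. All OE arrays were above all CTRL arrays, and OE 1 stood highest. The log2 difference was 0.54 (SE 0.11), 1.46-fold higher in OE ventricles (adjusted p = 0.0114, limma), with a 95% interval of 0.28 to 0.80. In each of its 4 probe sets the OE arrays lay above the CTRL arrays. The probe sets 1437675_at at 0.73 (adjusted p = 0.0181) and 1420210_at at 0.52 (adjusted p = 0.00430) were called. The other 2 differed by 0.51 (1425817_a_at, adjusted p = 0.0643) and 0.42 (1440201_at, adjusted p = 0.0528). The difference of the gene remained called whichever array was left out, and was 0.34 (adjusted p = 0.0326, limma) with centring on the ribosomal protein genes. One-way analysis of variance did not call it (adjusted p = 0.0716).

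Read 1 probe set at a time, 3 of the 21 were called higher and 6 lower, beside 11.4% and 9.58% of the 45037 probe sets tested. The 12 others were not called. The OE and CTRL arrays did not overlap in 13 of the 21, with 6 above and 7 below, against 40.7% of all probe sets (18.4% above and 22.3% below). The 3 higher ones were those of Slc8a1 and Cacna2d1 already given, and the 6 lower ones were those of Cacna1c, Cacna1g, Cacna1h, Cacna1s and Cacna2d1. Cacna2d1 was the 1 gene of the 9 with calls in both directions.

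**Figure D3:**
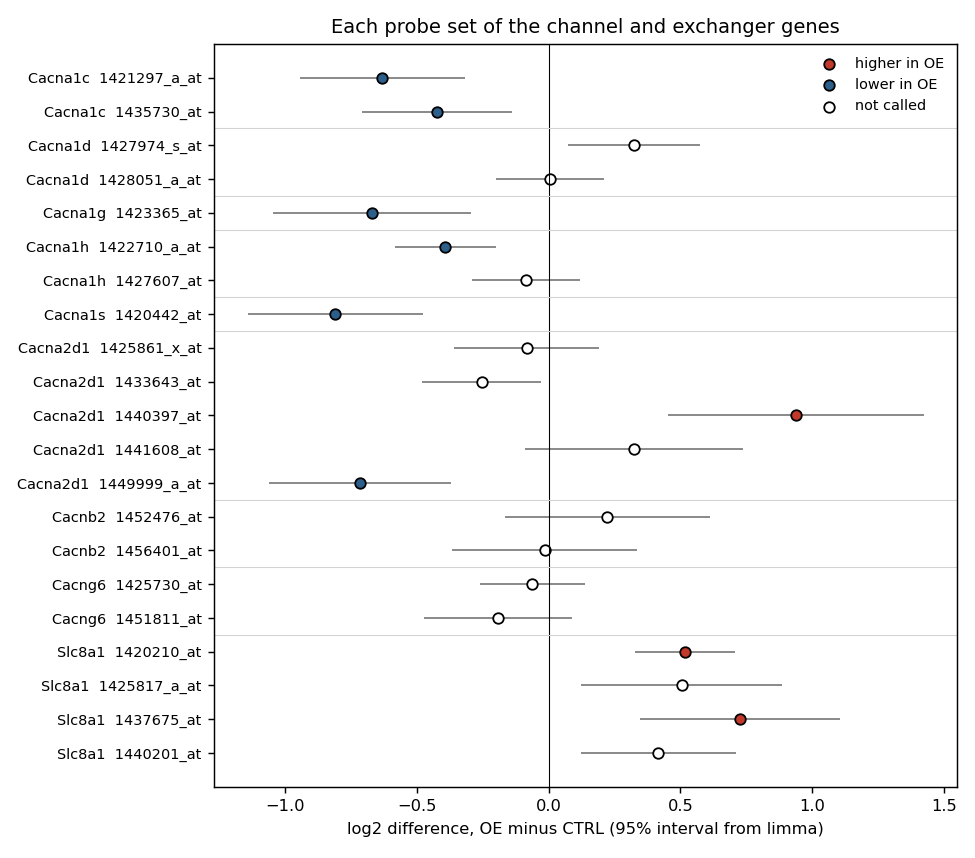
Log2 difference OE minus CTRL (x axis) with its 95% interval from limma for the 21 probe sets of the 9 genes (y axis), coloured by call. The vertical line is 0, with 3 called probe sets above it and 6 below. Among those not called, the intervals of 1427974_s_at, 1425817_a_at and 1440201_at also lie wholly above 0, and that of 1433643_at lies wholly below it.

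The same probe sets were set beside the 3′ and 5′ probe sets of array controls, since probes near the 5′ end read less of a shortened RNA. The 3′ minus 5′ difference of actin was 0.199, −0.00057 and 0.00849 in OE 1, OE 2 and OE 3, against −0.0678, −0.0535 and −0.0529 in CTRL 1, CTRL 2 and CTRL 3. That of the transferrin receptor was −0.01, 0.07 and 0.09 in OE arrays, against −0.41, −0.11 and −0.12 in CTRL arrays. Both were higher in OE arrays without overlap (exact two-sided permutation p = 0.1 each, the smallest possible), whereas those of pyruvate carboxylase overlapped (p = 0.8). Because the values are centred, these are differences between arrays only, and their part in the opposite values of the probe sets of Cacna2d1 was not tested.

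Other genes of calcium entry and exit were counted from lists, to be read beside the 14.9% of all genes called higher and the 11.8% called lower. Among the other α1 pores, 4 measured genes differed by −0.10 to 0.00 and 0 were called in either direction by limma, by one-way analysis of variance or at an unadjusted p under 0.05. They include Cacna1a and Cacna1b, pores of nerve terminals, at 0.00 and −0.03. With centring on the ribosomal protein genes both were called lower, Cacna1a at −0.20 (adjusted p = 0.0366, limma) and Cacna1b at −0.23 (adjusted p = 0.0316). Among 12 other auxiliary subunits, limma called only Cacng7, a γ subunit best known from brain, lower at −0.34 (adjusted p = 0.0242). It read −0.13, −0.16 and −0.11 in OE arrays, against 0.04, 0.27 and 0.33 in CTRL arrays. The call was lost without any array other than CTRL 1 (adjusted p between 0.0557 and 0.073, limma), with the probe set of largest variance (adjusted p = 0.0702) and under a one-way analysis of variance (adjusted p = 0.0791), which called only Cacng2 of these subunits, lower at −0.17 and given after its value was seen. Cacnb1, the β subunit of skeletal muscle, differed by 0.23 and missed the threshold (adjusted p = 0.0575), and is given after its value was seen. The medians of both lists were −0.06 and −0.04, beside −0.03 for all genes.

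Of 11 other exchangers and surface calcium pumps, 2 were lower and 9 were not called. Slc24a3, an exchanger that also carries potassium, was lower at −0.52 (adjusted p = 0.0267, limma), with −0.11, −0.31 and −0.17 in OE arrays against 0.23, 0.64 and 0.11 in CTRL arrays. Atp2b4, a calcium pump of the plasma membrane, was lower at −0.37 (adjusted p = 0.0178), with −0.14, −0.08 and −0.31 in OE arrays against 0.22, 0.26 and 0.08 in CTRL arrays. Of the exchangers and pumps measured, only Slc8a1 was called higher. Slc24a4 and Atp2b1, an exchanger and a pump of the same families, differed by −0.02 and 0.03 and were not called. With centring on the ribosomal protein genes Slc24a4 was called lower at −0.23 (adjusted p = 0.0403, limma). One-way analysis of variance called neither Slc24a3 nor Atp2b4. The call of Slc24a3 was also lost without OE 1, OE 2, OE 3 or CTRL 1 (adjusted p between 0.0504 and 0.0802, limma), and that of Atp2b4 without OE 3, CTRL 1 or CTRL 2 (adjusted p between 0.0509 and 0.0576).

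Of 20 measured regulators that bind or modify calcium channels, 3 were higher and 2 were lower, beside 14.9% and 11.8% of all genes. Gem, a small GTPase of the RGK family that inhibits L-type channels through the β subunit, was the furthest from 0. It read 0.73, 0.42 and 0.94 in OE 1, OE 2 and OE 3, against −0.60, −0.42 and −0.47 in CTRL 1, CTRL 2 and CTRL 3, a log2 difference of 1.19 (SE 0.13, adjusted p = 9.019e-04, limma). The groups stood far apart, the nearest arrays being OE 2 at 0.42 and CTRL 2 at −0.42. Rrad, of the same family, differed by 0.03 with overlapping arrays (adjusted p = 0.962), and is given after its value was seen. Ahnak, a scaffold that binds the β subunit, was higher at 0.56 (adjusted p = 0.0255), and Sri, sorcin, a calcium-binding partner of Cav1.2 and of the ryanodine receptor, at 0.52 (adjusted p = 0.0103). Prkar2a, a regulatory subunit of protein kinase A, was lower at −0.30 (adjusted p = 0.0132), and Cabp1, a calcium-binding protein, at −0.27 (adjusted p = 0.0273), given after its value was seen. Ahnak, Sri and Cabp1 were not called with one-way analysis of variance. The call of Ahnak was also lost without OE 1, OE 3, CTRL 1 or CTRL 2 (adjusted p between 0.073 and 0.0835, limma), and that of Prkar2a without OE 1 (adjusted p = 0.0511). Sri is also in the list of exchanger regulators, and Cacnb1 in this list as well as among the auxiliary subunits.

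Of 7 measured genes that regulate, anchor or work beside the exchanger, 3 were lower and 2 were higher. Fxyd1, phospholemman, which inhibits both NCX1 and the sodium pump, read −0.27, −0.33 and −0.33 in OE 1, OE 2 and OE 3, against 0.42, 0.45 and 0.27 in CTRL 1, CTRL 2 and CTRL 3. It fell by 0.69 on the log2 scale (SE 0.07, adjusted p = 8.662e-04, limma), with little spread in either group. Pln, phospholamban, which inhibits the calcium pump of the sarcoplasmic reticulum and not the exchanger itself, was lower at −0.65 (adjusted p = 5.906e-04), and is also among the cardiomyocyte markers. Without Pln, 2 of the other 6 genes were lower. Ank2, ankyrin-B, which anchors NCX1 and the sodium pump, was lower at −0.36 (adjusted p = 0.0113). Sri was higher, as given, and so was Atp1b1, the β subunit of the sodium pump, at 0.35 (adjusted p = 0.0379), which is given after its value was seen. One-way analysis of variance called neither of these 2. Of 14 measured genes of store-operated and TRP calcium entry, Orai1, the store-operated pore, was higher at 0.27 (adjusted p = 0.0269) and 13 were not called. With centring on the ribosomal protein genes Orai1 differed by 0.07 and was not called (adjusted p = 0.436), nor was it without OE 1, OE 3, CTRL 1 or CTRL 2 (adjusted p between 0.0691 and 0.0913, limma).

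**Figure D4:**
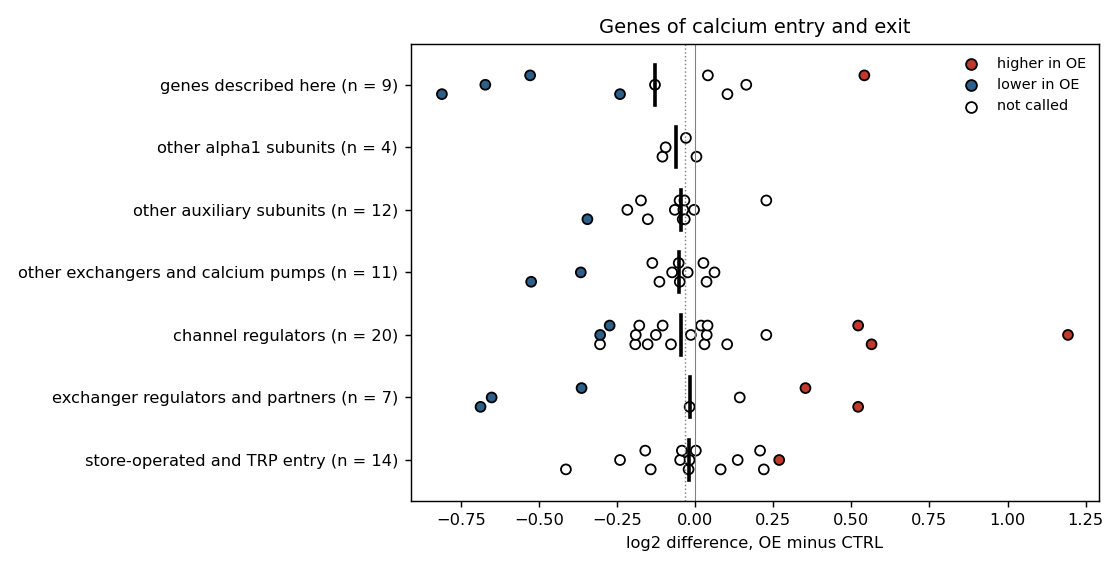
Log2 difference OE minus CTRL (x axis) of every measured gene (point) among the 9 genes described here and in 6 lists of other calcium genes (y axis), coloured by call, with a bar at each median and a dotted line at the median of all genes (−0.03). Most points of the other lists are open, for genes not called, and of those lists Gem (1.19), Fxyd1 (−0.69) and Pln (−0.65) lie furthest out.

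Markers of the cell types of the ventricle also differed between the groups. Their counts stand beside 14.9% of all genes called higher and 11.8% called lower. Of 16 cardiomyocyte markers, 4 were higher and 9 lower, and the mean of the list was −0.16 to −0.12 in OE arrays and 0.08 to 0.14 in CTRL arrays. They ran both ways, with Nppa, the atrial natriuretic peptide, higher at 1.29, and Myh6 and Pln lower at −1.31 and −0.65. The median log2 difference of the cardiomyocyte markers was −0.44. Smooth muscle and pericyte markers, of cells that also carry Cav1.2, were higher in 4 and lower in 6 of 12. Their list means were −0.02 to 0.10 in OE arrays and −0.17 to 0.07 in CTRL arrays. Those means were raised in OE arrays by Cnn1, which differed by 4.94, while Abcc9 differed by −2.00. The median log2 difference of these markers was −0.32. Endothelial markers were lower in 7 of 12, with list means of −0.22 to −0.02 in OE arrays and 0.11 to 0.34 in CTRL arrays. One-way analysis of variance called 2 cardiomyocyte markers higher and 7 lower, and 3 smooth muscle and pericyte markers higher and 5 lower. It called 1 endothelial marker lower. Of all genes it called 1437 higher and 1125 lower.

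Fibroblast markers were higher in 6 and lower in 1 of 12, with list means of 0.21 to 0.36 in OE arrays and −0.60 to −0.22 in CTRL arrays. Macrophage markers were higher in 6 of 12, with 0.05 to 0.35 in OE arrays and −0.41 to −0.11 in CTRL arrays. Of 10 atrial markers 5 were higher and 2 lower, with 0.24 to 0.41 in OE arrays and −0.25 to −0.17 in CTRL arrays. Of 10 measured nerve and glia markers 3 were higher and 2 lower, with 0.08 to 0.17 in OE arrays and −0.14 to −0.05 in CTRL arrays. One-way analysis of variance called 3 fibroblast, 2 macrophage, 3 atrial and 1 of the nerve and glia markers higher. It called 1 fibroblast, 0 macrophage, 1 atrial and 2 of the nerve and glia markers lower. The part of these cell types in the values of the channel genes and of Slc8a1 was not tested.

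**Figure D5:**
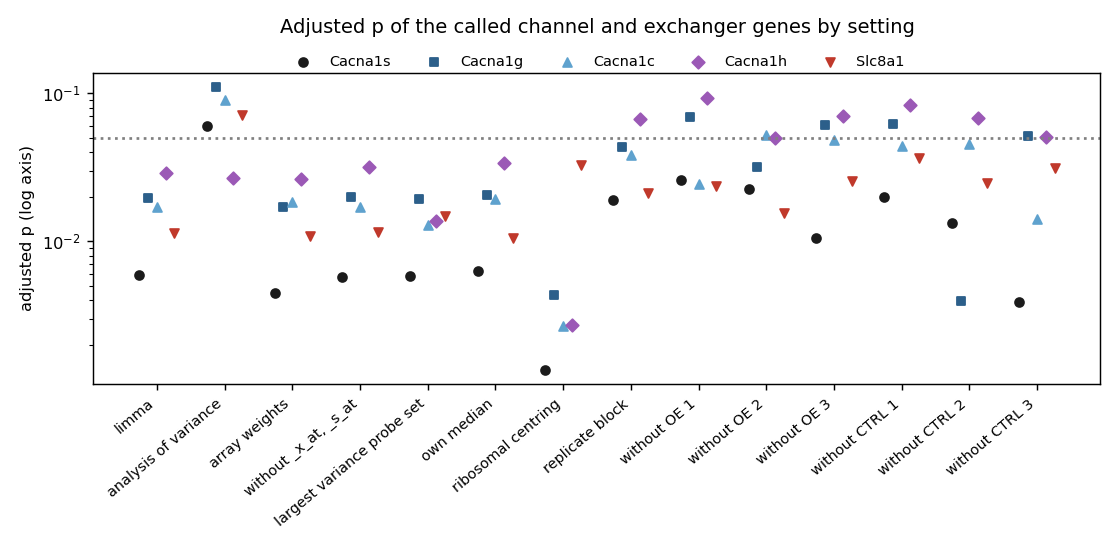
Adjusted p of the 5 called genes (y axis, log scale) under each way of processing the arrays (x axis), with 1 symbol per gene and a dotted line at the threshold of 0.05. Cacna1s and Slc8a1 stayed called whichever array was left out, while Cacna1g and Cacna1h lay above the line in most of those settings.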

How the data were processed

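Whole ventricles of 3 OE and 3 CTRL mice were hybridised to 6 Affymetrix arrays, 1 per mouse. The authors summarized the arrays by RMA in GeneSpring GX, with quantile normalization and a baseline at the median of all samples, and the deposited values were read here as log2. The base of the logarithm and the version of RMA are not given in the sources used here. Values ran from −4.29 to 3.54, and no probe set had a median further from 0 than 5.0e-07, so no level, detection or depth is known. The number of arrays limits the precision.

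Of 45101 probe sets, 64 were array controls, 9160 others named no gene, 932 named several and 34945 named 1. Those of a gene were averaged, and 162 gene IDs without a reference entry kept the symbol of the array annotation. The fit of OE against CTRL used limma 3.58.1 (lmFit, then eBayes) under R 4.3.3, two-sided, with Benjamini-Hochberg adjustment over 18193 genes, or over 45037 probe sets, and a threshold of 0.05. SE and the 95% interval are the moderated ones of that fit. One-way analysis of variance, the test in the study's methods, was kept as an alternative, since a variance from so few arrays is unsteady. The script was tested on simulated data. The lowest p of an exact permutation test of these arrays is 0.1.

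The genes and lists were chosen with earlier results of these data known. Lists held other α1 and auxiliary subunits, exchangers and pumps, regulators of channels, regulators and partners of the exchanger, store-operated and TRP entry, and markers of cardiomyocytes, smooth muscle and pericytes, endothelium, fibroblasts, macrophages, nerve and glia, atria, pacemaker and conduction tissue, and skeletal muscle. Named were all 10 genes with each probe set, Nr2f2 and, from a list, up to 4 called genes with the largest difference and up to 2 of the smallest among those not called. Alternatives were one-way analysis of variance, the probe set of largest variance, leaving out _x_at and _s_at probe sets, other centring, the replicate number as a block, a fold limit of 1.2 and leaving out each array. Promoter windows came from RefSeq on GRCm38.p6. Tables and figures were made in Python 3.11.15 (pandas 2.3.3, matplotlib 3.10.9).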

Additional observations from a re-analysis of the deposited data

How the results depend on the processing

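With one-way analysis of variance, 0 of the 9 genes were called higher (2 at an unadjusted p under 0.05, where limma gave 1 at the adjusted threshold and 2 at the unadjusted one) and 1 lower, Cacna1h (adjusted p = 0.0269). It called 1437 of all genes higher and 1125 lower, and of the 21 probe sets 1 higher and 1 lower. When each gene was read from its most variable probe set, 2 of the 9 were higher and 4 lower, beside 3351 of all genes higher and 2400 lower. With each array centred on ribosomal protein genes, 1377 genes were higher and 8757 lower, and 10 of the 21 probe sets were lower. Cacna1a (−0.20) and Snap25 (−0.19) changed sign and were called lower. Of the 9 genes, Cacna1d (−0.04), Cacna2d1 (−0.16) and Cacnb2 (−0.10) changed sign with this centring and were not called. The causes were not tested, apart from the shift of −0.20 that this centring gives to all genes.

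Leaving out 1 array, which also leaves fewer samples, gave 1 of the 9 genes higher and 2 to 3 lower, 1830 to 2371 of all genes higher and 1243 to 1731 lower, and 2 to 4 of the 21 probe sets higher and 4 to 5 lower. The lower genes numbered 2 without OE 1, OE 3, CTRL 1 or CTRL 3, and all genes lower numbered 1243, 1402 and 1400 without OE 1, OE 3 and CTRL 1. With the replicate number as a block, 1 of the 9 genes was higher and 3 were lower, since Cacna1h was lost (adjusted p = 0.0673, limma), and 2369 of all genes were higher and 1679 lower. Arrays of the same number did not deviate together (correlations of 0.070, −0.117 and 0.025, with 2 of 6 arrays closest to their own number), so the numbers were not taken to pair mice. Array weights, centring on the array median and leaving out _x_at and _s_at probe sets moved none of these counts by more than 1.5 times, nor did the 1.2-fold limit, which only Cacna1h of the called genes missed. With no level in the values, neither detection nor signal over background could be examined.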
